A study of Homo sapiens with 4 samples.

Results

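The small proline-rich genes described here are SPRR1A, SPRR1B, SPRR2A, SPRR2D and SPRR3, 5 genes chosen by symbol and all found among the 25317 gene symbols of the deposited tables. Messenger RNA was sequenced in MCF10A, a cell line of human breast epithelium that does not come from a tumour. The cells carried a lentiviral ZsGreen vector with Ovol2, Zeb1 or Snail, or the same vector empty (EV), and the fluorescent cells were sorted on day 6. All 4 cultures were grown in medium with horse serum, epidermal growth factor, cholera toxin and insulin. Ovol2 is known as a transcription factor of epithelial identity, and Zeb1 and Snail as factors of the epithelial-to-mesenchymal transition. Each condition had 1 library, so no difference below has a replicate check or a test, and each describes these libraries. The sources used here give neither the promoter of the delivered factor nor the species of its coding sequence.

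Small proline-rich proteins are short, repetitive proteins that transglutaminases cross-link into the cornified envelope, the protein shell that replaces the plasma membrane of a terminally differentiated squamous cell. Their genes lie next to each other on the long arm of chromosome 1, in the epidermal differentiation complex, together with involucrin, loricrin, the late cornified envelope genes and many S100 genes. SPRR1 genes are known from squamous differentiation and from stressed or metaplastic epithelia, SPRR2 genes from skin and other stratified epithelia, and SPRR3 from mucosal surfaces such as the oesophagus. The mammary epithelium does not normally build a cornified envelope.

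The 250 bases before the annotated start are shown for 4 members, because the data bear on whether these genes moved together and because Snail and ZEB proteins are known to bind the letters CAGGTG. The sequences are from RefSeq (GRCh38.p14), 5′ to 3′ on the strand of each gene, and SPRR2D was not among the sequences used here. Capitals mark matches on either strand to TGANTCA (the AP-1 element), CAGGTG, ATTTGCAT (the octamer bound by POU factors) and TATAAA.
SPRR1A (chr1:152983831-152984080, plus strand): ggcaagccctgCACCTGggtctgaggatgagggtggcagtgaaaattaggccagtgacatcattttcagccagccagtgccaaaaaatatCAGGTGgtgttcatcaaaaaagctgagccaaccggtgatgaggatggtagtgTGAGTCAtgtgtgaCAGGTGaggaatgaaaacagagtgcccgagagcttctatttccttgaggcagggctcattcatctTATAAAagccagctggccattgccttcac
SPRR1B (chr1:153030953-153031202, plus strand): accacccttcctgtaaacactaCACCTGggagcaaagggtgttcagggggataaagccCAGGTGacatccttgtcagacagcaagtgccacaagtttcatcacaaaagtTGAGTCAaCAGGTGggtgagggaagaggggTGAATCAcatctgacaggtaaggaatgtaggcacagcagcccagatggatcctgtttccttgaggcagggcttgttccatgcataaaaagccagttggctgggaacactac
SPRR3 (chr1:153001499-153001748, plus strand): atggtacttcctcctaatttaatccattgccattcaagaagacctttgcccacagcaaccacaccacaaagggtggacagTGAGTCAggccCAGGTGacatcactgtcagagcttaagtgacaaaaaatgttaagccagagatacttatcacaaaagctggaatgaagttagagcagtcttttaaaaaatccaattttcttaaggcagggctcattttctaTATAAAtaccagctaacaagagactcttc
SPRR2A (chr1:153057513-153057762, minus strand): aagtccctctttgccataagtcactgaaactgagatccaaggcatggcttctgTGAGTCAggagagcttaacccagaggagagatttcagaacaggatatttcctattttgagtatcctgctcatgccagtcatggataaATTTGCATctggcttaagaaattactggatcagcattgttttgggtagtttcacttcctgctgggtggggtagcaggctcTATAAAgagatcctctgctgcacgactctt

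All 4 sequences held the AP-1 letters, 2 times before SPRR1B and 1 time before each of the others, and 6.57% of 35116 promoter windows of the same length held them. CAGGTG was found 3 times before SPRR1A, 3 times before SPRR1B, 1 time before SPRR3 and 0 times before SPRR2A. Of all windows, 17.5% held it at least once and 0.464% held it 3 or more times. The octamer was found before SPRR2A, and 1.63% of windows held it. TATAAA, present in 10.7% of windows, was found before SPRR1A, SPRR3 and SPRR2A. The ETS core GGAA, left in lower case, matched in all 4 sequences and in 92.7% of windows. The letters CCGTTA, an OVOL core, and AACNGGTT, a grainyhead motif, were in none of the 4, and 2.45% and 1.49% of windows held them. Both strands were searched and no match overlapped a match to another motif. A match is a description of letters and not a bound site.

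**Figure D1:**
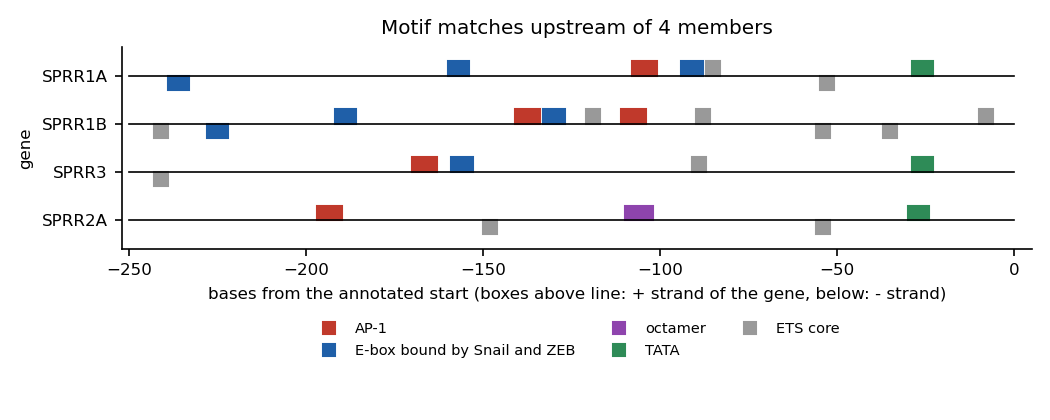
Motif matches in the 250 bases before the annotated start of 4 members, with distance in bases on the horizontal axis and 1 line per gene. Boxes above a line are on the strand of the gene and boxes below it on the other strand. SPRR1A and SPRR1B hold 3 blue boxes each (CAGGTG), SPRR3 holds 1 and SPRR2A holds 0.

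The SPRR2 genes are close copies of each other, which limits what their values can say. The coding sequences of SPRR2A, SPRR2D and SPRR2E are shown from GENCODE v29 transcripts because they differ so little. SPRR2E is not one of the 5 but had the highest SPRR2 value. Capitals mark bases that differ from SPRR2A.
SPRR2A: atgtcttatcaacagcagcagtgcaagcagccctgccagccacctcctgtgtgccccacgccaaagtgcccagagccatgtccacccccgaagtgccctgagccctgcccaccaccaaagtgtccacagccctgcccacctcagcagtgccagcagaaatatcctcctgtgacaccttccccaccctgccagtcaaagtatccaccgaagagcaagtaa
SPRR2D: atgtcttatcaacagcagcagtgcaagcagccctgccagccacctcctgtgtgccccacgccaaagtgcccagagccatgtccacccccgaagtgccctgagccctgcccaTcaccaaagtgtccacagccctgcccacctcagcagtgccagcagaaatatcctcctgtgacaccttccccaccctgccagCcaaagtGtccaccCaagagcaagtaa
SPRR2E: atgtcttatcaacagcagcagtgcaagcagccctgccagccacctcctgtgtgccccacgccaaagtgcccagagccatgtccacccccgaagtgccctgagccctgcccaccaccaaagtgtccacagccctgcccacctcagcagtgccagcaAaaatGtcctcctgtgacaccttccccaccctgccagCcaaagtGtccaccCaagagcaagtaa

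Over 219 coding bases SPRR2D differed from SPRR2A at 4 positions (98.2% identity) and SPRR2E at 5 (97.7%). Of all 50-base windows in the GENCODE v29 transcripts of SPRR2A, 32.7% also occurred in another SPRR gene, and the share was 19.3% for SPRR2D. SPRR1A shared 11.3% of its windows and SPRR1B 4.38%, each with the other. SPRR3 shared 0 windows. The sources used here do not give how fragments that match several genes were assigned. The split among SPRR2 genes is therefore uncertain, and the sum of the subfamily is given beside the single genes below.

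Depth, read from the smallest spacing of low values, came to about 24200000 fragments for Ovol2, 34400000 for Zeb1, 31500000 for Snail and 29200000 for EV. Values are FPKM, which count fragments per transcript length and sequencing depth, so levels can be compared between genes. At these depths 1 fragment on a transcript of 1 kilobase is worth 0.0414, 0.0291, 0.0317 and 0.0343 FPKM in the same order. Short RNAs RMRP and RPPH1 took 40.6% of all FPKM in Ovol2 and 18.7% to 24.6% in the other libraries, and the calls of the members below were the same with a scaling that leaves them out. The delivered genes matched the labels. OVOL2 was at 78.3 FPKM in the Ovol2 library against 6.32 in EV, ZEB1 at 17.3 in the Zeb1 library against 0.260 in EV, and SNAI1 at 99.7 in the Snail library against 0.152 in EV. All 6 basal epithelial markers were at 1 FPKM or more in every library, with summed levels of 4949 FPKM in Ovol2, 2471 in Zeb1, 7392 in Snail and 9098 in EV. Most of the Ovol2 sum was KRT17 (4624 against 5736 FPKM in EV, -0.31 as the log2 ratio of FPKM + 1). The other 5 were lower by 2-fold or more in the library where the SPRR genes were high, with log2 ratios of -3.76 for KRT5, -2.87 for ITGB4, -1.72 for KRT14, -1.55 for CDH3 and -1.43 for TP63. Correction for transcript length brought CDH3 (-0.95) and TP63 (-0.88) below 2-fold. In Zeb1 all 6 were lower, between -2.30 for TP63 and -1.47 for KRT14. The 8 luminal markers summed to between 125 FPKM in Zeb1 and 246 in Snail. The 6 mesenchymal markers summed to 8.45 FPKM in Ovol2, 4276 in Zeb1, 680 in Snail and 110 in EV. Of the leukocyte markers, CD3E was listed at 0 in all 4 libraries and PTPRC was at 0.0177 FPKM or less, while CD14 was at 17.0 FPKM in Zeb1. The 5 endothelial markers summed to 1.55 FPKM in Ovol2 and to 0.189 or less in each of the others. The part of cell composition in the results below was not tested. In a bulk library a change in the number of cells that express a gene and a change in its RNA per cell cannot be told apart.

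Ovol2 against EV addressed what an epithelial factor does to these genes in an epithelial line. All 5 members were higher by 2-fold or more, where the measure is the log2 of the ratio of FPKM + 1. Of 11812 genes that reached 1 FPKM in Ovol2 or EV, 6.82% were higher and 25.1% lower by this rule. The median of the 5 members was 5.88, against -0.51 over all genes kept. Only SPRR1B reached 1 FPKM in the EV library. The other 4 entered the comparison through the Ovol2 library alone and could not have been called lower, so the count of 5 supports nothing beyond the values that follow.

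**Figure D2:**
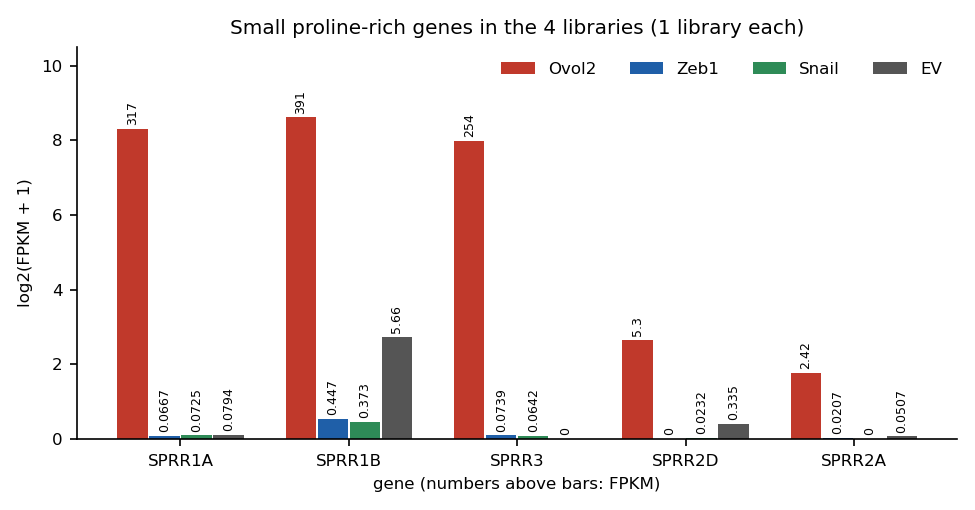
Level of each member in the Ovol2, Zeb1, Snail and EV libraries, as log2(FPKM + 1) on the vertical axis, with the FPKM above each bar and 1 library per bar. The Ovol2 bars reach 254 to 391 FPKM for SPRR1A, SPRR1B and SPRR3 and 2.42 to 5.30 FPKM for the SPRR2 members.

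SPRR1B, which encodes cornifin B, was the highest member in every library but not at the same scale. It stood at 391 FPKM in the Ovol2 library, 0.447 in Zeb1, 0.373 in Snail and 5.66 in EV. It ranked 136 among all genes of the Ovol2 library and 6562 in EV. The log2 ratio of Ovol2 to EV was 5.88, a plain ratio of 69.2. SPRR1A, its nearest relative, stood at 317 FPKM in Ovol2, 0.0667 in Zeb1, 0.0725 in Snail and 0.0794 in EV. The log2 ratio of Ovol2 to EV was 8.20 and the rank in the Ovol2 library 161. The 3 low values of SPRR1A lie within a few fragments of 0. With the annotated transcript of 270 bases, all of them coding, they come to 0.619 fragments in Zeb1, 0.617 in Snail and 0.625 in EV, so they show no order. The true transcript is longer than its coding part, and these fragment numbers are low estimates.

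SPRR3, the mucosal member, was at 254 FPKM in the Ovol2 library, 0.0739 in Zeb1 and 0.0642 in Snail, and it was listed at 0 in EV. It was the member with the third highest level in Ovol2, at rank 192 of that library. The low values came to about 2.50 fragments in Zeb1 and 1.99 in Snail, and 3 fragments in EV would have given 0.104 FPKM, so no order among Zeb1, Snail and EV was detectable at this depth. The log2 ratio of Ovol2 to EV was 7.99.

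In the Ovol2 library the SPRR2 members were far below the other 3. In EV, SPRR2D was listed above SPRR1A and SPRR3. With the annotated SPRR1A transcript of 270 bases, 3 fragments in EV would have given 0.381 FPKM, above the SPRR2D value. A longer transcript would lower this figure, so whether the order of SPRR2D and SPRR1A was resolved is left undecided. SPRR2D was at 5.30 FPKM in Ovol2, was listed at 0 in Zeb1, and was at 0.0232 in Snail and 0.335 in EV, with a log2 ratio of Ovol2 to EV of 2.24. SPRR2A was at 2.42 FPKM in Ovol2 and 0.0207 in Zeb1, was listed at 0 in Snail, and was at 0.0507 in EV, with a ratio of 1.70. About 102 fragments lay behind the Ovol2 value of SPRR2D (exact 95% Poisson interval 83.5 to 124) and 41.5 behind that of SPRR2A (29.8 to 56.2). For SPRR2D in EV the number was 7.81 (3.33 to 15.5) and for SPRR2A 1.05. These intervals assume the longest annotated transcript and cover counting error only. With a pseudocount of 5 FPKM both SPRR2 ratios dropped below 2-fold, to 0.95 for SPRR2D and 0.56 for SPRR2A.

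Among the other 6 SPRR genes of the tables, SPRR2E was at 8.17 FPKM in Ovol2, listed at 0 in Zeb1, at 0.0465 in Snail and listed at 0 in EV, with a log2 ratio of Ovol2 to EV of 3.20. SPRR4, which lies beside SPRR1A, was at 3.16 FPKM in Ovol2 and listed at 0 in the other 3 libraries (2.06). SPRR2G was at 0.191 FPKM in Ovol2, SPRR2B at 0.0313 and SPRR2F at 0.00221, and SPRR2C was listed at 0 there. These 4 stayed below 1 FPKM in every library and were not compared. The 7 SPRR2 genes together came to 16.1 FPKM in Ovol2, 0.0207 in Zeb1, 0.190 in Snail and 0.386 in EV, with a log2 ratio of Ovol2 to EV of 3.63. The family as a whole summed to 981 FPKM in Ovol2, 0.609 in Zeb1, 0.699 in Snail and 6.12 in EV. SPRR1 genes made up 72.2% of that sum in Ovol2, SPRR3 25.9% and SPRR2 genes 1.64%. In EV, 92.4% of the sum was SPRR1B and 0% was SPRR3.

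**Figure D3:**
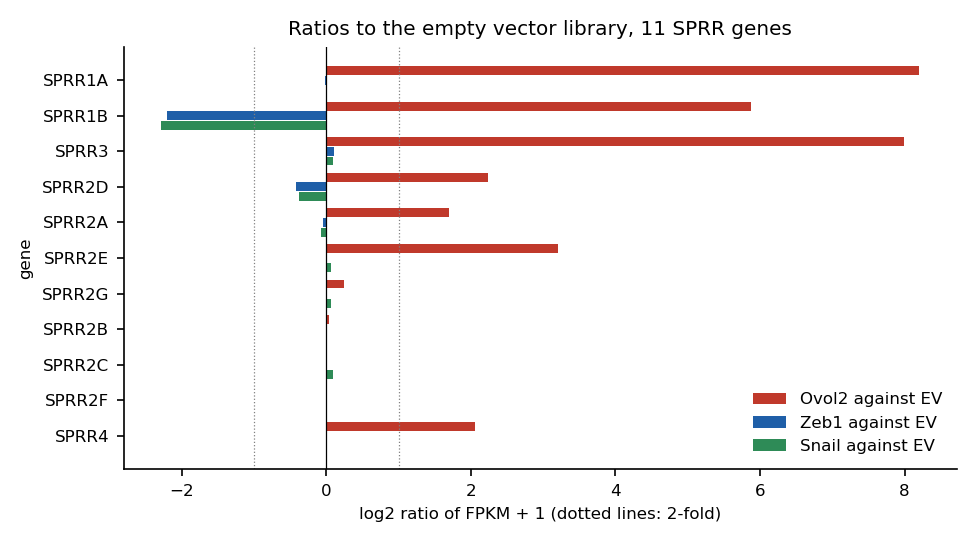
Log2 ratio of FPKM + 1 to the EV library for all 11 SPRR genes, with 1 bar each for Ovol2, Zeb1 and Snail and dotted lines at 2-fold. Bars to the right mean higher than EV. SPRR1A, SPRR3 and SPRR1B lead with Ovol2, and SPRR1B alone passes 2-fold on the left, with Zeb1 (-2.20) and Snail (-2.28).

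Zeb1 and Snail against EV addressed what 2 factors of the epithelial-to-mesenchymal transition do to the same genes. Only SPRR1B reached 1 FPKM in EV and no member did in Zeb1 or Snail, so SPRR1B alone was compared. It was lower in both libraries. Being kept through the EV library alone, it could not have been called higher at these levels, and the call adds nothing to the values below. Of 11922 genes kept for Zeb1, 8.49% were lower and 4.52% higher by 2-fold or more. Of 11644 genes kept for Snail, 1.50% were lower and 1.00% higher. The median over all genes was -0.09 for Zeb1 and 0.12 for Snail. All 3 comparisons use the same EV library, so its SPRR1B value enters each ratio.

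For SPRR1B the log2 ratio was -2.20 in Zeb1 (0.447 against 5.66 FPKM) and -2.28 in Snail (0.373 against 5.66 FPKM). Plain ratios were 0.0791 and 0.0659. About 9.53 fragments lay behind the Zeb1 value (exact 95% Poisson interval 4.47 to 17.8) and 7.29 behind the Snail value (3 to 14.8), against 102 in EV (83.4 to 124). These intervals too cover counting error only, and with 1 library each they do not measure the spread between cultures. SPRR2D, with 0.335 FPKM in EV, was listed at 0 in Zeb1 and stood at 0.0232 in Snail, but the filter of 1 FPKM kept it out of both comparisons. With the pseudocount of 5 FPKM the SPRR1B ratios shrank to -0.97 and -0.99, just short of 2-fold.

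Setting the factor libraries against each other leaves the EV library out. SPRR1B had a log2 ratio of 8.08 for Ovol2 to Zeb1 and 8.16 for Ovol2 to Snail, and SPRR1A had 8.22 and 8.21. For SPRR3 the ratios were 7.89 and 7.90, for SPRR2D 2.65 and 2.62, and for SPRR2A 1.75 and 1.77. No member reached 1 FPKM in Zeb1 or Snail, so Zeb1 and Snail were not compared with each other. All 5 were kept here through the Ovol2 library alone and could not have been called lower in it. Their levels were 0.447 FPKM or less in Zeb1 and 0.373 or less in Snail, below the 1 FPKM added to each value. These ratios therefore mainly restate the Ovol2 levels, and the closeness of the 2 ratios of a gene carries no further information.

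The members lie close together on chromosome 1, and their neighbours were examined in chromosome order, taken from RefSeq, from S100A10 to S100A1. Of 63 coding genes there, 61 were in the tables and 10 of these were SPRR genes. Among the 51 others, 33 were kept in Ovol2, of which 27 were higher by 2-fold or more (median 1.83) and 0 were lower. Of all 40 kept genes of the interval, SPRR genes included, 26 were kept through the Ovol2 library alone and could not have been called lower. The 14 that reached 1 FPKM in EV were SPRR1B and neighbours. Among these 14, S100A10, S100A11, S100A3, S100A2 and S100A13 passed 2-fold in neither direction, and the rest were higher. Over all genes kept, 6.82% were higher and 25.1% lower. The block that runs from involucrin (IVL, 34.3 against 2.49 FPKM, 3.34) over SPRR4, SPRR1A, SPRR3, SPRR1B, SPRR2D and SPRR2A held no gene below 1.70. Genes further along the SPRR2 row were uneven, since SPRR2E was at 3.20 while SPRR2B, SPRR2F and SPRR2G stayed under 1 FPKM. The leading genes of the whole interval were S100A7 (10.17), SPRR1A, SPRR3, S100A9 (7.89), SPRR1B and CRCT1 (5.58). In Zeb1, 6 of 13 kept neighbours were lower and 1, S100A4 (3.25), higher. In Snail, 2 of 13 were lower, S100A8 (-1.73) and S100A9 (-1.66), and 0 higher. The shares of lower genes over all genes kept were 8.49% in Zeb1 and 1.50% in Snail. S100A10 and S100A11, at the edge of the interval, were at -0.13 and 0.13 in Ovol2.

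**Figure D4:**
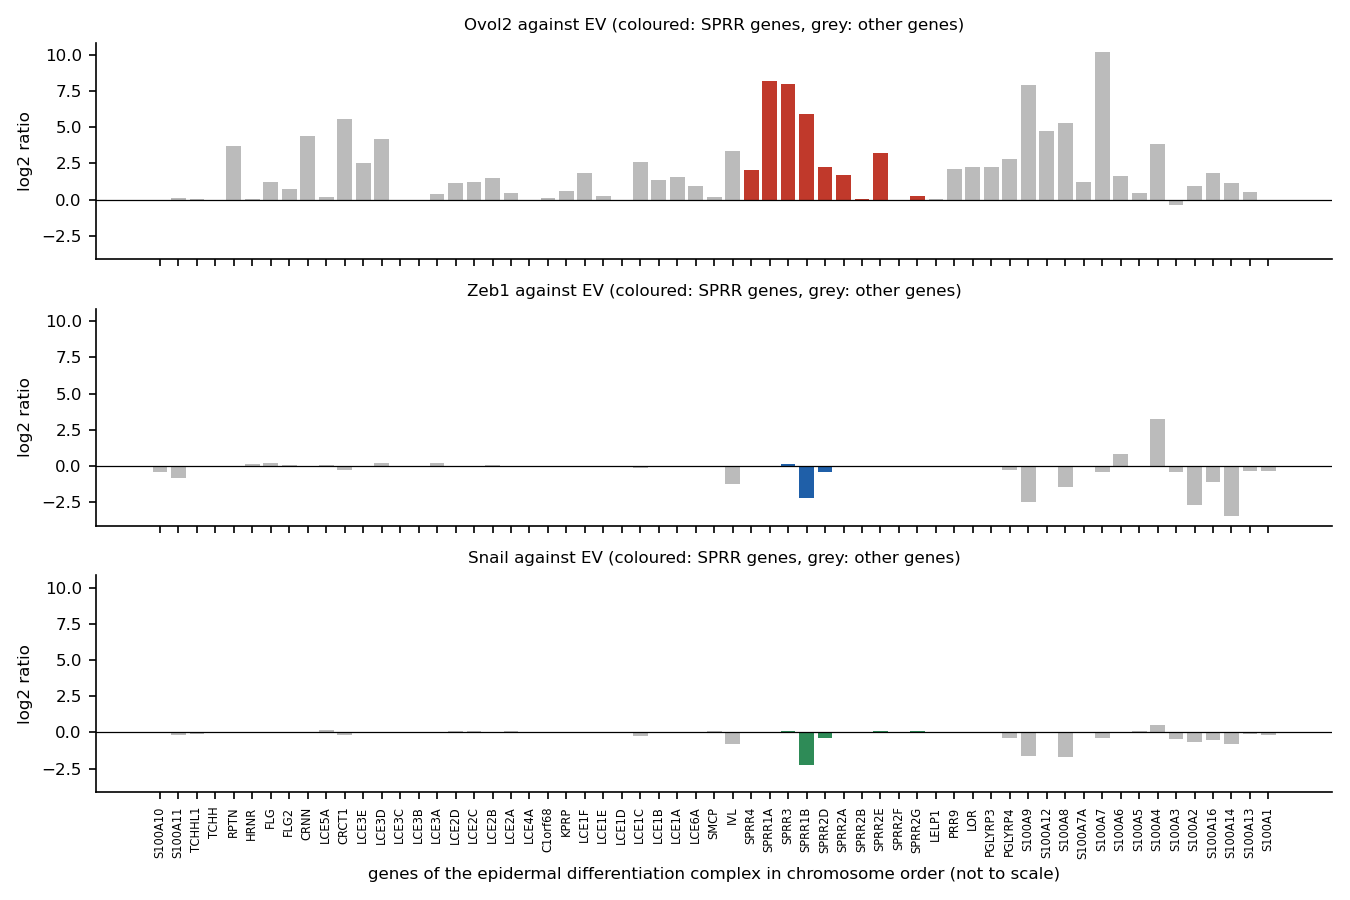
Log2 ratio of FPKM + 1 to EV for 61 genes of the epidermal differentiation complex in chromosome order, not to scale, in panels for Ovol2, Zeb1 and Snail. Coloured bars are SPRR genes and grey bars other genes. The tall coloured bars in the Ovol2 panel are SPRR1A (8.20), SPRR3 (7.99) and SPRR1B (5.88), and SPRR1B is the longest coloured bar in the panels of Zeb1 and Snail.

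Genes of other envelope proteins overlap with the neighbours just described. Of 37 other cornified envelope precursors, 23 were kept. By the 2-fold rule 19 of these were higher (median of the 23, 2.24) and 0 lower, beside 6.82% and 25.1% of all genes. However, 19 of the 23 were kept through the Ovol2 library alone and could not have been called lower. Of the 4 that reached 1 FPKM in EV, IVL and CSTA were higher and PPL and EVPL passed 2-fold in neither direction. Keratinocyte differentiation-associated protein (KRTDAP) stood at 2391 against 0.677 FPKM (10.48), elafin (PI3), a transglutaminase substrate, at 253 against 0.118 (7.83), suprabasin (SBSN) at 110 against 0.0718 (6.70), and the protease inhibitor cystatin A (CSTA) at 3494 against 134 (4.70). Cornulin (CRNN) and LCE3D were at 19.6 and 17.5 FPKM in Ovol2 and listed at 0 in EV. Periplakin (PPL, -0.48) and envoplakin (EVPL, -0.26) are known to form the scaffold of the envelope. In Zeb1, CSTA (-2.41), EVPL (-1.38) and IVL (-1.25) were lower, 3 of 5 kept, and in Snail CSTA (-1.15) alone, 1 of 7 kept. All genes kept gave 8.49% lower in Zeb1 and 1.50% in Snail.

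Of the transglutaminases, TGM1, the membrane-bound enzyme that cross-links the envelope, was at 31.7 FPKM in Ovol2, 0.937 in Zeb1, 1.31 in Snail and 4.00 in EV. Its log2 ratios to EV were 2.71, -1.37 and -1.11, in the same directions as those of SPRR1B. Tissue transglutaminase TGM2 went the other way, with 0.117 FPKM in Ovol2, 20.9 in Zeb1, 9.93 in Snail and 1.36 in EV (-1.08, 3.22 and 2.21). Correction for transcript length brought the TGM2 ratio of Ovol2 below 2-fold. Epidermal TGM3 stayed at 0.509 FPKM or less, and TGM5 was at 2.19 FPKM in Ovol2 against 0.636 in EV (0.96). Cystatin M (CST6), which restrains proteases that act on TGM3, was at 269 against 4.72 FPKM (5.56). Of the whole list of 8, 7 were kept in Ovol2, 2 of them higher and 2 lower, beside 6.82% and 25.1% of all genes. The second lower gene was RARRES3 (-1.04), which upper quartile scaling brought below 2-fold (-0.85), and CTSD was at 0.94. In Zeb1, 4 of 6 kept were lower, CST6 (-1.43), TGM1, CAPN1 (-1.26) and CTSD (-1.05), of which CAPN1 and CTSD dropped below 2-fold with a scaling that leaves out RMRP and RPPH1 (-0.95 and -0.74). In Snail, 3 of 6 were lower, CST6 (-1.24), TGM1 and RARRES3 (-1.04). TGM2 was the 1 higher gene in each. Lower genes made up 8.49% of all genes kept for Zeb1 and 1.50% for Snail, and higher genes 4.52% and 1.00%.

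Keratins and other markers of stratified epithelia were examined to place the SPRR pattern. Of 15 mucosal squamous genes, 11 were kept in Ovol2, 10 higher and 1, EMP1 (-1.16), lower (median 2.92). EMP1 dropped below 2-fold with upper quartile scaling (-0.79). The higher genes included the mucosal keratins KRT4 (679 against 4.18 FPKM, 7.04) and KRT13 (193 against 4.80, 5.07), the protease TMPRSS11E (3.78), the protease inhibitor SPINK5 (3.03) and sciellin (SCEL, 2.92). Of 12 epidermal suprabasal genes, 8 were kept and all 8 were higher (median 2.61), among them CALML5 (141 against 0.0392 FPKM, 7.09), the protease ASPRV1 (5.37), KRT1 (3.65), KRT10 (105 against 12.3, 2.98), loricrin (LOR, 2.24) and DSG1 (1.90). In each list 6 genes were kept through the Ovol2 library alone and could not have been called lower. Over all genes kept for Ovol2, 6.82% were higher and 25.1% lower. In Zeb1, 2 of 5 kept mucosal genes were lower, KRT13 (-1.09) and TMPRSS11E (-1.07), and in Snail KRT13 (-1.11) and KRT4 (-1.08). Among all genes kept, 8.49% were lower in Zeb1 and 1.50% in Snail. KRT4 was at -0.84 and SCEL at -0.91 in Zeb1. Centring the ratios brought KRT13 and TMPRSS11E in Zeb1 below 2-fold. Of the epidermal list, KRT10 (0.26 in Zeb1 and 0.57 in Snail) and CASP14 (-0.91 in Zeb1 and -0.22 in Snail) were kept, and neither passed 2-fold.

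Transcription factors known from SPRR or squamous gene control did not move as a block. In Ovol2, 26 of 28 were kept, 6 higher and 7 lower (median -0.50, against -0.51 over all genes). The lower count was 4 with upper quartile scaling and 2 after length correction. Over all genes 6.82% were higher and 25.1% lower. Of the 6, GRHL1, GRHL3, ZNF750 and POU2F3 were kept through the Ovol2 library alone and could not have been called lower. The higher ones were the grainyhead factors GRHL1 (14.5 against 0.689 FPKM, 3.20) and GRHL3 (6.21 against 0.567, 2.20), CEBPA (33.4 against 5.36, 2.44), the ETS factor ELF3 (63.8 against 11.4, 2.39), ZNF750 (1.28) and the POU factor POU2F3 (2.13 against 0.362, 1.20). The AP-1 subunits, a subset singled out after its values were seen, were not among them. Of 7 AP-1 genes 3 were lower in Ovol2 and 0 higher, namely JUN (12.2 against 51.8 FPKM, -2.0), FOSB (22.7 against 71.6, -1.62) and FOSL2 (18.3 against 41.7, -1.15). FOS was at 185 against 320 FPKM (-0.79) and JUNB at 166 against 130 (0.36). Of JUN, FOSB and FOSL2, JUN alone stayed past 2-fold after correction for transcript length (-1.09), and without RMRP and RPPH1 in the scaling 5 of the 7 were lower. Over all genes, 1034 of 11211 were lower after length correction and 3790 of 11746 without RMRP and RPPH1.

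In Zeb1, 9 of 23 kept factors were lower, TP63 (-2.30), GRHL2 (-2.25) and ELF3 (-2.22) among them, and 2 were higher, PRDM1 (1.82) and MAF (1.30). These 2 were kept through the Zeb1 library alone and could not have been called lower. Over all genes kept, 8.49% were lower and 4.52% higher in Zeb1, and 1.50% and 1.00% in Snail. In Snail 1 of 21 was lower, ELF3 (2.61 against 11.4 FPKM, -1.78), and 0 were higher, while EHF was at -0.78, TP63 at -0.58 and CEBPA at -0.51. The 3 ELF3 ratios thus had the same signs as those of SPRR1B. Those of CEBPA (2.44, -1.11 and -0.51) and EHF (0.64, -0.21 and -0.78) did too, though no EHF ratio reached 2-fold. JUNB was at 0.36, -0.60 and -0.01. With 129 FPKM in Snail against 130 in EV, its Snail ratio shows no direction. CEBPA was at -1.11 in Zeb1, and centring brought it below 2-fold (-0.93), while GRHL3 and ZNF750 stayed under 1 FPKM in Zeb1 and EV and were not compared. Of the 7 AP-1 genes, JUN (-1.36), FOSB (-1.48) and FOSL1 (-1.25) were lower in Zeb1, and 0 passed 2-fold in Snail.

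**Figure D5:**
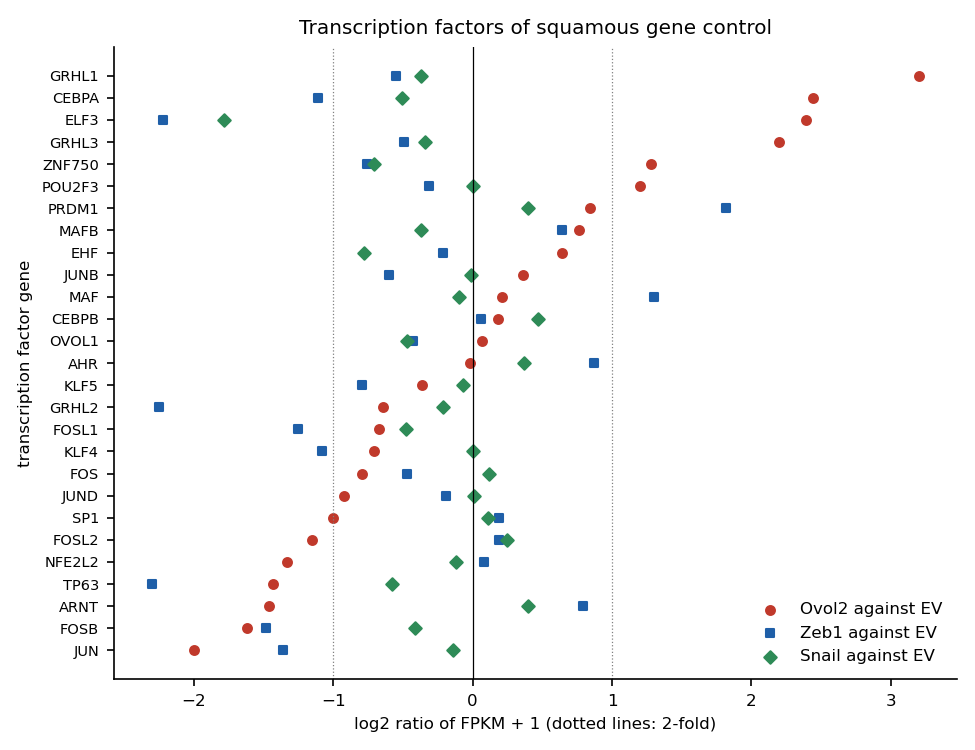
Log2 ratio of FPKM + 1 to EV for transcription factor genes of the list, 1 row each, with circles for Ovol2, squares for Zeb1 and diamonds for Snail and dotted lines at 2-fold. Rows are sorted by the Ovol2 ratio, from GRHL1 (3.20) at the top to JUN (-2.0) at the bottom. ELF3 is the gene with its circle beyond 2-fold on the right and both other marks beyond 2-fold on the left.

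Genes with a similar pattern were sought among 8277 genes at 5 FPKM or more in any library, by the Euclidean distance between log2(FPKM + 1) values over the 4 libraries, each gene centred on its own mean. The nearest to SPRR1A was SPRR3 (distance 0.26), followed by the aldo-keto reductase AKR1B10 (0.45) and PI3 (0.50). SPRR3 had SPRR1A (0.26), PI3 (0.26) and the skin protease KLK7 (0.57) nearest. SPRR1B had other neighbours, the protease KLK5 (0.36), S100A8 (1.07) and KRT4 (1.08), at 5.89, 4.53 and 4.18 FPKM in EV against 5.66 for SPRR1B. SPRR2D lay nearest to GRHL3 (0.09), the cytokine IL36G (0.09) and SLC27A2 (0.10). The nearest to SPRR2A were SNORA25 (0.11), SNORA32 (0.14) and SERF2 (0.16), which are expressed at 20.9 FPKM or more in every library, so that likeness rests on the small span of SPRR2A on this scale. Around the mean pattern of the members lay KRT23 (0.25), CRCT1 (0.29), MUCL1 (0.40), ALDH1A1 (0.43) and SLURP1 (0.45). With a pseudocount of 0.1 FPKM 0 of the 3 genes near SPRR2A, 0 of the 3 near SPRR2D and 0 of the 5 near the mean pattern were found again, so these neighbours depend on the scale. Near SPRR1A, 1 of 3 was found again (SPRR3). Near SPRR1B 2 of 3 were (KLK5 and S100A8), and near SPRR3 2 of 3 (SPRR1A and PI3).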

How the data were processed

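RNA was measured in 4 libraries, 1 per condition. Per the submitters' processing notes, the authors used TopHat, Cufflinks and Cuffdiff with hg19. The deposited values were taken as FPKM from these tools and from the values, since no header names the unit. The sources used here give no version, annotation, strand setting or scaling between libraries. Each of 3 deposited tables also holds the authors' adjusted p-value of 1 library against 1 library, used only as an alternative.

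Values of repeated symbols (43 rows) were added up. A gene was compared where at least 1 library of the pair reached 1 FPKM, by the log2 ratio of FPKM + 1, which understates differences of low genes, and called at 2-fold. In every comparison, a kept gene below 1 FPKM in 1 library of the pair could only be called lower in that library. Depth was read from FPKM times transcript length of genes with 1 GENCODE v29 transcript. Promoter and coding sequences come from reference tables on GRCh38 and carry no value of the files. The procedure was checked on simulated data with Python 3.11.15, pandas 2.3.3 and numpy 2.4.6.

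The members and all lists were chosen with earlier results of these data known. Named genes were the members, the other SPRR genes, up to 6 genes per list by size of the Ovol2 ratio and up to 4 by that of Zeb1 and Snail, and the nearest genes by pattern. RARRES3, EMP1, POU2F3, ZNF750, PRDM1, MAF, FOSL1, S100A4, PPL, EVPL in Ovol2, the other AP-1 genes and genes at the edge of the complex, CASP14 and the basal markers were added after their values had been seen, and 1 gene of the lists is counted but not reported here. Alternatives covered the pseudocount, the filter, scaling, transcript length, repeated symbols and the authors' adjusted p-values.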

Additional observations from a re-analysis of the deposited data

How the results depend on the processing

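The direction of each called member ratio held under all alternatives run. With a pseudocount of 5 FPKM, 3 members instead of 5 were higher in Ovol2, and 0 instead of 1 were lower in Zeb1 and in Snail. A filter of 5 FPKM left SPRR2A out of the Ovol2 comparison, and 4 of 4 members kept were higher. The other alternatives kept the counts at 5, 1 and 1, including the adjusted p below 0.05 of the authors' deposited table, which says little here because it called 2984 genes higher and 8228 lower in Ovol2, 4884 and 6190 in Zeb1, and 7016 and 3117 in Snail. The SPRR1B ratio ranged between 5.22 and 6.37 in Ovol2, -3.39 and -0.97 in Zeb1, and -3.61 and -0.99 in Snail. Those of SPRR1A and SPRR3 in Ovol2 ranged between 5.99 and 10.79 and between 5.70 and 11.31, both ends set by the pseudocount. The members summed gave log2 ratios of 7.09, -2.15 and -2.22 in Ovol2, Zeb1 and Snail, while SPRR3 alone, at a few fragments, gave 0.10 in Zeb1 and 0.09 in Snail. Of 20 nearest genes, 5 were found again with a pseudocount of 0.1 FPKM.

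Counts over all genes moved more. In Ovol2, 806 genes were higher and 2965 lower (21.4% of called genes higher), against 437 and 877 with the pseudocount of 5 FPKM (33.3%), 569 and 3790 without RMRP and RPPH1 (13.1%), 1359 and 1807 with upper quartile scaling (42.9%) and 1437 and 1034 after length correction (58.2%). In Zeb1, 539 and 1012 (34.8%) became 803 and 674 with centring (54.4%), 1017 and 605 without RMRP and RPPH1 (62.7%), 885 and 1541 with the pseudocount of 0.1 FPKM and 224 and 416 with that of 5 FPKM, and the share was 45.1% with upper quartile scaling and 46.8% after length correction. In Snail, 117 and 175 (40.1%) became 217 and 361, and 37 and 60, with these pseudocounts, 84 and 109 with a filter of 5 FPKM, 80 and 239 with centring (25.1%), and 26.6% were higher with upper quartile scaling. The median shift by centring was -0.02 in Ovol2, -0.18 in Zeb1 and 0.12 in Snail. No paired analysis was possible because each condition had 1 library. Without replicates, depth limits only the low values.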

Other observations

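Promoter windows of 4 further SPRR genes were available, and their motif letters can be set beside their Ovol2 levels. The 250 bases before SPRR4, at 3.16 FPKM in Ovol2, held CAGGTG 2 times and no AP-1 letters. SPRR2F and SPRR2G, at 0.00221 and 0.191 FPKM in Ovol2, held the AP-1 letters 1 time each, and SPRR2B, at 0.0313 FPKM, held none. SPRR2B and SPRR2F held the octamer, as SPRR2A did. The SPRR2F value came to about 0.0364 fragments, and the split among SPRR2 genes is uncertain. Whether any of these letters bear on the levels was not tested.

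Late cornified envelope genes, which lie between FLG2 and IVL, were below SPRR1A, SPRR1B and SPRR3 in the Ovol2 library, though LCE3D was above the SPRR2 genes. LCE3D was at 17.5, LCE1C at 6.12 and LCE3E at 4.70 FPKM there, while LCE1D, LCE3B, LCE3C and LCE4A were listed at 0 in all 4 libraries.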
